A study of Mus musculus with 6 samples.

Results

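Autophagy encloses pieces of cytoplasm in a double membrane and delivers them to the lysosome, and the transcripts of 40 genes of this machinery were followed in HL-1 cells at low oxygen. HL-1 is a mouse cardiomyocyte line derived from an atrial tumour that keeps beating in culture. Cells grown to confluence were held for 8 hours in hypoxia (1% oxygen, 3 arrays) or in normoxia (21% oxygen, 3 arrays). The genes are 16 of initiation, 13 of the conjugation step, 4 cargo receptors and 7 of the lysosome and its transcription. Each was read from the probe set that carries its symbol alone, and where several do, from the one with the highest mean log2 signal. A probe set is a group of short probes against one transcript. This gave values for 39 of the 40 genes; Optn, a receptor for ubiquitin-tagged cargo, was not analysed here. All 39 lay above the filter on low signal, which kept 62.3% of all genes (11332 of 18193).

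In starved or stressed cells the ULK1 kinase complex starts the process and a lipid kinase complex built on VPS34 marks the growing membrane with the lipid PI3P. Ubiquitin-like conjugation systems then attach LC3 and GABARAP proteins to that membrane, cargo receptors bind them, and the closed autophagosome fuses with a lysosome whose proteases degrade the content. The transcription factors TFEB and TFE3 switch on lysosomal and autophagy genes through a DNA element that contains the E-box CACGTG, while HIF proteins, the oxygen-regulated factors, bind the core letters ACGTG or GCGTG. In heart muscle, steady autophagy clears damaged mitochondria and protein, and loss of LAMP2 in humans causes Danon disease, a cardiomyopathy.

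The promoters of these genes are shown because their letters bear on both routes of control. RefSeq windows on GRCm38.p6, from 250 bases before to 50 bases after a transcript start, were at hand for 33 of the 40 genes, in 39 windows, with several windows for 5 genes. Ctsb, Atg16l1, Rb1cc1, Map1lc3a, Atg12, Pik3c3 and Becn1 have none in the table. Of the windows, 7 hold CACGTG, one each of Lamp1, Ctsd, Atg3, Atg7, Atg14, Atg5 and Ctsl, and they are printed 5′ to 3′ with CACGTG in capitals. Lamp1 (chr8:13158911-13159210, plus strand) and Ctsd (chr7:142387778-142388077, minus strand) are given over the whole window. The others are given as the stretch around the motif, Atg3 at chr16:45158710-45158788 (plus strand), Atg7 at chr6:114670939-114670994 (plus), Atg14 at chr14:47568405-47568460 (minus), Atg5 at chr10:44268300-44268355 (plus) and Ctsl at chr13:64370726-64370770 (minus).
Lamp1: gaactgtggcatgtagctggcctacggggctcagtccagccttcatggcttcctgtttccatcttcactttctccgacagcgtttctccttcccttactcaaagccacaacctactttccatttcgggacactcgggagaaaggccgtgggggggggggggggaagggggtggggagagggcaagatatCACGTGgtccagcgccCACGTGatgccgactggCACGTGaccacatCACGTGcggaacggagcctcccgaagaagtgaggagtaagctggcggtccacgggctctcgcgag
Ctsd: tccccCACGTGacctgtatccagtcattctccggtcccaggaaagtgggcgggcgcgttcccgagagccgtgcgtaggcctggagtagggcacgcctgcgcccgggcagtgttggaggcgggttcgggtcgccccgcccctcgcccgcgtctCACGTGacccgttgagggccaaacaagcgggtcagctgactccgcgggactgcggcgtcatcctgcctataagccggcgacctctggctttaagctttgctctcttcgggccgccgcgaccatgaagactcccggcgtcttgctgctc
Atg3: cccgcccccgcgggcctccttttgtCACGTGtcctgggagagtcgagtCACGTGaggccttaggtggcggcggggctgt
Atg7: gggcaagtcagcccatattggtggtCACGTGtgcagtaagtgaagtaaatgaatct
Atg14: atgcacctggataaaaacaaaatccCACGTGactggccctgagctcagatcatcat
Atg5: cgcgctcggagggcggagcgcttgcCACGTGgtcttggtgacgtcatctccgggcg
Ctsl: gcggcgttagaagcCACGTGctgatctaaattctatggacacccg
Lamp1 carries 4 copies within 61 bases of its start, with first bases at positions -61, -45, -28 and -15, where -1 is the base just before the start. Ctsd carries 2, at -245 and -98, and Atg3 carries 2, at -94 and -71. CACGTG was found in 17.9% of the 39 windows, against 9.82% of the 11827 windows of all tested genes. Its longer form GTCACGTG, read on either strand, was in 5 of them (Atg14, Atg3, Atg7, Ctsd and Lamp1), or 12.8%, against 4.09%. The HIF core letters were searched on both strands. The form ACGTG, which every E-box of this kind contains, so that the searches overlap, was found in 43.6% of the 39 windows, against 25.8% of all. The form GCGTG was found in 69.2%, against 50.1%. A match is a run of letters, not a shown binding site.

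The labelled cell type was checked against marker genes. All 13 atrial cardiomyocyte markers passed the filter, and their summed signal was 34944 to 36764 in hypoxia and 36483 to 38776 in normoxia. Of 10 macrophage markers, which matter here since macrophages are rich in lysosomes, 5 passed. Their sums were 135.5 to 178.6 in hypoxia and 132.8 to 172.6 in normoxia, with Ptprc and Itgam under 10 on every array. Csf1r, which passed, lay between 29.8 and 70.3. Cd68, a lysosomal glycoprotein of macrophages, had signals of 39.3, 49.2 and 43.4 in hypoxia and of 25.3, 18.8 and 16.5 in normoxia, without overlap (log2 fold change 1.14, SE 0.29, limma adjusted p = 0.157). The other 4 tested macrophage markers overlapped between the conditions. Aif1, below the filter, went the other way without overlap, at 1.6, 4.1 and 1.5 in hypoxia and 10.2, 8.4 and 14.1 in normoxia. Of the 13 cardiomyocyte markers, Nppa (0.76) and Sln (0.88) were higher in hypoxia without overlap, beside 8.16% of all genes. Myl4 (-0.12) and Tnni3 (-0.37) were lower without overlap, beside 9.91% of all genes. Actn2 was lower by more, with overlap (-0.68, SE 0.23, limma adjusted p = 0.322). Fibroblast markers (3 of 8 passed) summed to 133.4 to 254.4 in hypoxia and 153 to 161.4 in normoxia. Endothelial markers (3 of 8) summed to 244 to 330.6 in hypoxia and 248.5 to 276.1 in normoxia, with Tie1 under 10 on every array. The 3 that passed gave more signal over the arrays, at 82.3 to 109.4 for Vwf, 49.3 to 102.5 for Kdr and 28.3 to 111.3 for Eng. By limma, 0 marker genes passed at an adjusted p under 0.05, and the part of other cell types in the results was not tested. The median signal of an array lay between 15 and 19, and the mean correlation of an array with others of its condition between 0.955 and 0.964. One pair of arrays shared a pattern. Hypoxia replicate 3 was the lowest of its condition for 25 of the 39 genes (64.1%, against 37.4% of all genes). Normoxia replicate 1 was the lowest of its condition for 21 of them (53.8%, against 38.4%), and 18 genes had both (46.2%, against 23.1%), among them Ulk1, Map1lc3a, Tfe3, Lamp1 and Ctsd. For the genes these arrays moved most, values without them are given, a check chosen after their values were seen.

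No transcript of the autophagy and lysosome machinery differed between 1% and 21% oxygen by enough, against the spread between arrays, to pass the test. Of the 39 genes, 0 passed limma's test at a Benjamini-Hochberg adjusted p under 0.05, where 0.75% of all 11332 genes did (0.662% higher and 0.0882% lower in hypoxia, 85 genes in all). The smallest adjusted p of the 39 was 0.376, for Atg2b. At an unadjusted p under 0.05, Ulk1 and Atg2b were higher and Atg5 lower, or 2 and 1 of 39, where 6.13% of all genes were higher and 6.3% lower. The 3 hypoxia arrays lay clear of the 3 normoxia arrays for 3 genes, above them for Atg2b and Lamp2 and below them for Atg5. Among all genes the arrays lay apart for 18.1%, with hypoxia above for 8.16% and below for 9.91%. None of these counts among the 39 exceeds the share found among all genes. The signal is an average over the cells of a dish, so fewer cells of a type and less RNA per cell cannot be told apart.

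The log2 fold changes of the 39 genes, hypoxia minus normoxia, had a median of 0.01, beside -0.04 for all genes. Of the 39, 24 lay above 0 and 15 below, where 5032 of all genes lay above and 6300 below. With arrays centred on their median, which took the median of all genes to 0.07, the split was 28 and 11. With quantile normalization it was 21 and 18. The changes of the 39 ran from -0.66 for Atg2a, which was -0.07 without hypoxia replicate 3, to 0.79 for Ulk1. The middle 50% lay between -0.17 and 0.18, beside -0.25 and 0.15 for all genes, and the median absolute value was 0.18 beside 0.20. For 30 of the 39 the absolute value was under 0.3, as for 66.1% of all genes. A missed threshold does not show that nothing moved, so the intervals set the limit. The 95% interval lay within 1 log2 of 0 for 32 of the 39 genes (74.2% of all genes) and within 1.5-fold for 21 (36.5% of all genes). The standard error (SE) was 0.10 for Map1lc3b, 0.59 for Atg2a and 0.18 in the middle. The smallest absolute change among the 85 genes that passed was 0.55, and their median was 1.25.

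**Figure D1:**
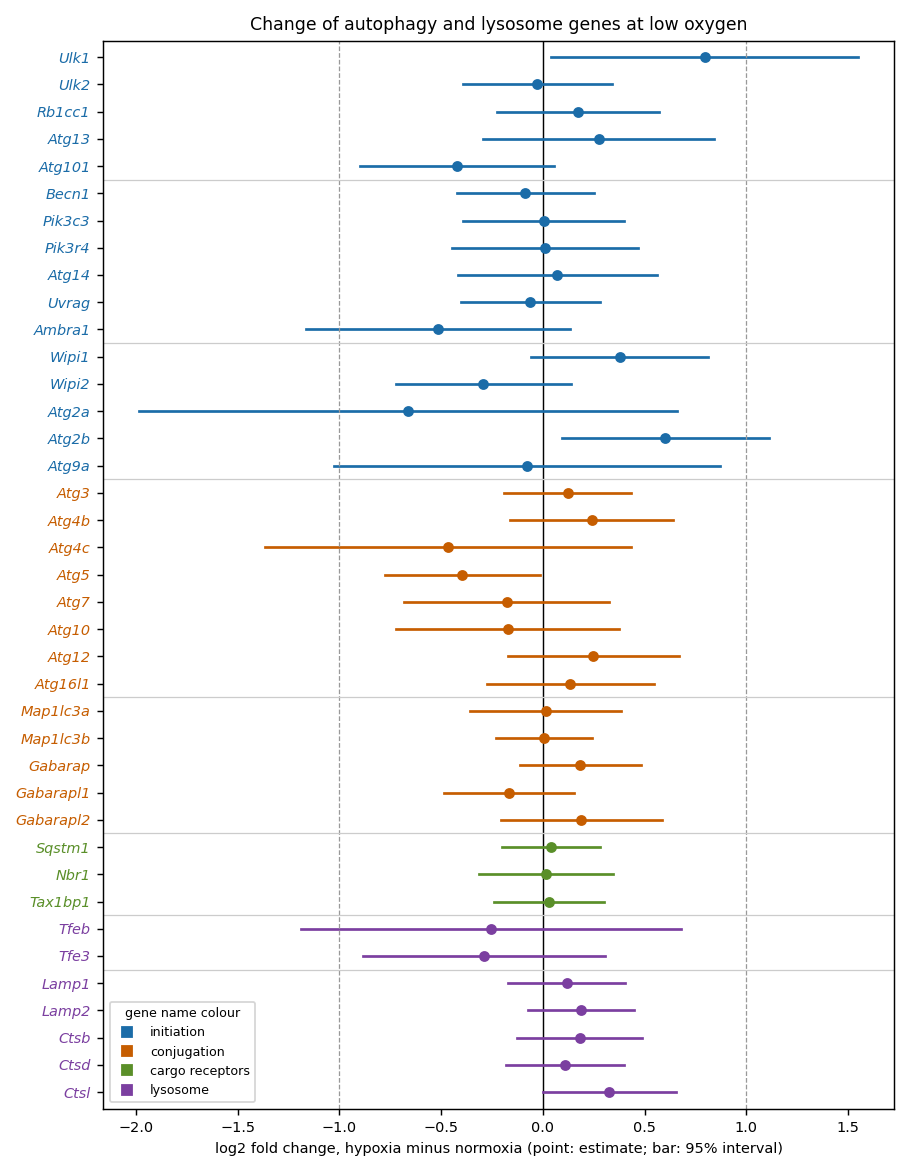
Log2 fold change, hypoxia minus normoxia, of each of the 39 genes, grouped by role from top to bottom, with the 95% interval from limma as a bar and dashed lines at 1 log2 either side of 0. The points run from -0.66 (Atg2a) to 0.79 (Ulk1), and the bars are narrow for Map1lc3b and Sqstm1 and wide for Atg2a and Tfeb.

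The ULK1 complex, the kinase that starts autophagy, is Ulk1 or Ulk2 bound to the scaffolds Rb1cc1 (FIP200), Atg13 and Atg101. Ulk1 had signals of 235.2, 342.2 and 176.5 in hypoxia and of 81.9, 197.4 and 168.4 in normoxia. Hypoxia replicate 3 lay inside the normoxia range, and normoxia replicate 1 stood far under the other 2. The log2 fold change was 0.79 (SE 0.34, 95% interval 0.04 to 1.55, limma adjusted p = 0.434). Without normoxia replicate 1 it was 0.41 (SE 0.26, adjusted p = 0.483), and without hypoxia replicate 3 it was 1.02 (adjusted p = 0.341). A second Ulk1 probe set gave 0.71 (SE 0.53). Its low arrays were normoxia replicates 1 and 3 and hypoxia replicate 3. Ulk2, the paralogous kinase, had -0.03, and its other probe sets 0.06 and -0.36. Rb1cc1 had 0.17, with -0.29 from another probe set, and Atg13 had 0.27. Atg101 had -0.42 (SE 0.21, adjusted p = 0.519), from 148.0, 99.8 and 87.9 in hypoxia and 155.0, 137.1 and 146.7 in normoxia. The complex therefore had 3 members above 0 and 2 below, none past the test.

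The VPS34 complex makes PI3P. Its members here are the lipid kinase Pik3c3 (VPS34), its regulatory subunit Pik3r4, the scaffold Becn1 (Beclin 1), the subunits Atg14 and Uvrag that direct it to autophagosomes or endosomes, and the positive regulator Ambra1. Becn1 had signals of 629.2, 557.3 and 478.6 in hypoxia and of 533.3, 668.5 and 562.9 in normoxia. The conditions overlapped broadly (log2 fold change -0.09, SE 0.15, interval -0.42 to 0.25). The other 4 Becn1 probe sets ran from -0.63 to 0.07. Ambra1 had the widest distance of the complex, with 72.2, 89.2 and 42.6 in hypoxia and 79.0, 84.6 and 120.0 in normoxia. Hypoxia replicate 3 was low and normoxia replicate 3 high, and the log2 fold change was -0.52 (SE 0.29, adjusted p = 0.564). It was -0.21 without hypoxia replicate 3 and -0.33 without normoxia replicate 3. Pik3c3 was at 0.00, Pik3r4 at 0.01, Atg14 at 0.07 and Uvrag at -0.06.

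PI3P is read by Wipi1 and Wipi2, while Atg2a and Atg2b carry lipid to the growing membrane and Atg9a, a scramblase in vesicles, seeds it. Atg2b was the member with the smallest adjusted p. Its signals were 75.9, 55.8 and 59.0 in hypoxia and 43.2, 35.4 and 46.8 in normoxia. Every hypoxia array was above every normoxia array (log2 fold change 0.60, SE 0.23, interval 0.09 to 1.11, adjusted p = 0.376). A second, dimmer Atg2b probe set had -0.08 (SE 0.38), and with the probe sets averaged the value was 0.26. The paralogue Atg2a went with wide spread, at 25.9, 43.1 and 9.7 in hypoxia and 18.1, 37.2 and 63.8 in normoxia. Some of these signals are near the level of the filter (a geometric mean of 14.1), and the log2 fold change of -0.66 (SE 0.59) has an interval of -1.98 to 0.66. It hung on single arrays, at -0.07 without hypoxia replicate 3, -0.23 without normoxia replicate 3, -1.14 without hypoxia replicate 2 and also without normoxia replicate 1. Wipi2, which recruits the conjugation machinery, had 157.0, 137.4 and 113.9 in hypoxia and 157.9, 144.0 and 198.3 in normoxia. Its log2 fold change was -0.29 (SE 0.19, adjusted p = 0.622), and a second probe set gave -0.25. Wipi1 had 0.38 (SE 0.19), but its 3 other probe sets lay below 0, down to -0.69. Atg9a had -0.08 with an SE of 0.42, and its sign turned with the arrays used, at 0.40 without hypoxia replicate 3, -0.43 without normoxia replicate 1 and -0.47 without hypoxia replicate 2.

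**Figure D2:**
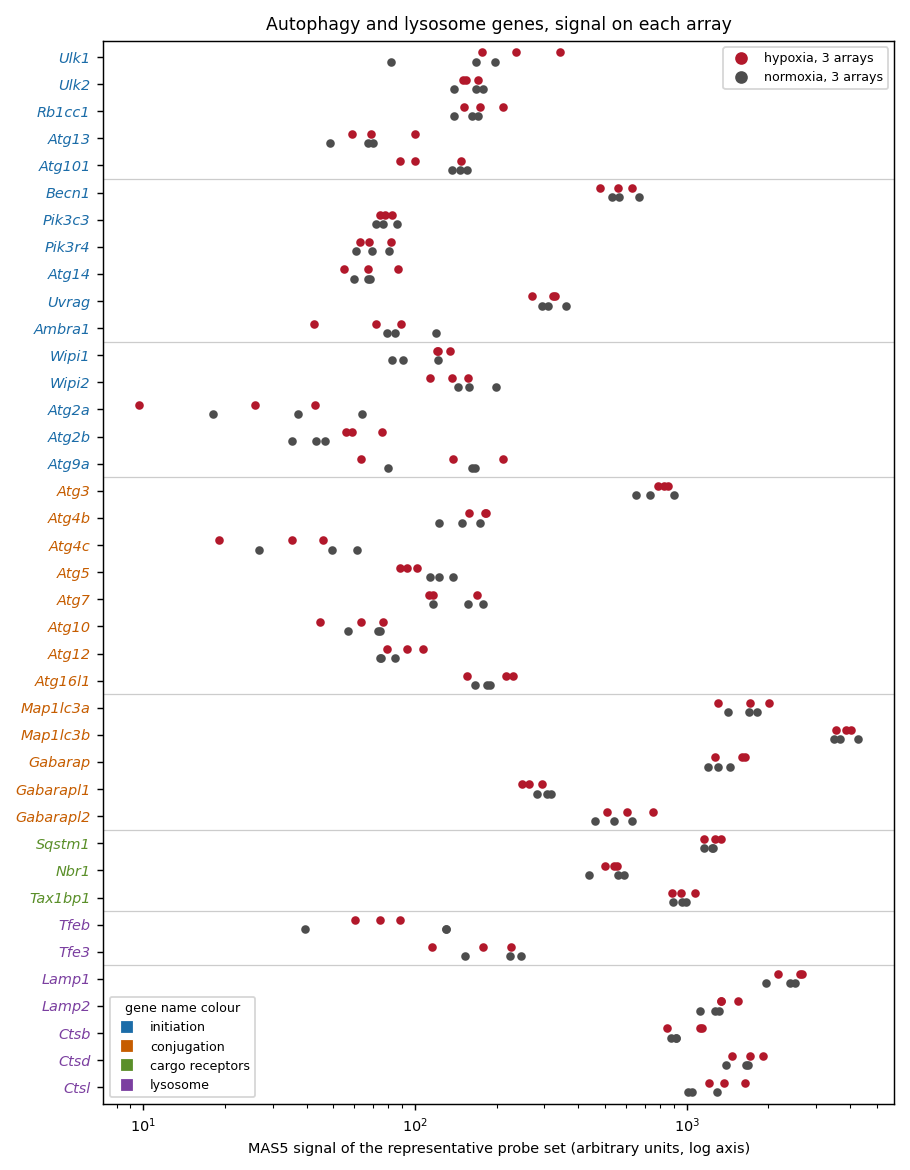
MAS5 signal of each of the 39 genes on each of the 6 arrays, on a log axis, with hypoxia arrays (red) drawn above normoxia arrays (grey). The colours stand clear of each other for Atg2b, Atg5 and Lamp2, and interleave for the other 36 genes; signals of different probe sets are not on a common scale.

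Conjugation couples Atg12 to Atg5 and LC3 proteins to lipid. Atg7 is the activating enzyme of both routes, Atg10 and Atg3 are the conjugating enzymes, Atg16l1 places the Atg12-Atg5 conjugate on the membrane, and Atg4b and Atg4c are proteases that trim and release LC3 proteins. Atg5 was the one gene of the 39 with every hypoxia array below every normoxia array. Its signals were 102.1, 93.7 and 88.3 in hypoxia and 138.8, 122.4 and 113.5 in normoxia (log2 fold change -0.40, SE 0.17, adjusted p = 0.438). The probe sets of Atg5 did not share that sign. Another had 85.7, 99.9 and 113.8 in hypoxia and 70.3, 84.3 and 77.7 in normoxia, also without overlap, at 0.36 (SE 0.19, adjusted p = 0.532), and the third had -0.24. No direction can be read for Atg5 from these. Atg3 had 823.0, 787.1 and 852.3 in hypoxia and 898.6, 653.5 and 730.7 in normoxia, with a log2 fold change of 0.12 (SE 0.14, interval -0.19 to 0.43). Atg4c had the largest distance of the enzymes on dim, scattered signals, at 45.9, 35.3 and 19.1 in hypoxia and 26.8, 61.1 and 49.8 in normoxia (-0.47, SE 0.40, adjusted p = 0.711). It was -0.11 without hypoxia replicate 3, -0.22 without normoxia replicate 2, -0.74 without hypoxia replicate 1 and -0.81 without normoxia replicate 1, so its place among the enzymes rests on single arrays. Atg7 lay below 0 on all 3 of its probe sets (-0.18, -0.37 and -0.46), where the smallest adjusted p was 0.408. Atg12 had 0.25, Atg4b 0.24, Atg16l1 0.14 and Atg10 -0.17. The 8 genes split 4 above and 4 below 0.

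LC3 and GABARAP proteins are the ones attached to the autophagosome membrane, and Map1lc3b (LC3B) is the usual marker of autophagosomes at the protein level. Map1lc3b had signals of 4034.7, 3555.5 and 3859.2 in hypoxia and of 4284.3, 3658.4 and 3484.0 in normoxia. The conditions overlapped on this probe set. The log2 fold change was 0.01 with the smallest SE of the 39 genes (0.10), and its interval was -0.23 to 0.24. Further Map1lc3b probe sets above the filter gave 0.12 (SE 0.10) and 0.16 (SE 0.14), neither past the test. That at 0.12 had 1374.4, 1351.9 and 1423.2 in hypoxia and 1306.3, 1229.4 and 1282.5 in normoxia, without overlap. Gabarapl2, a GABARAP paralogue, had 602.5, 509.8 and 753.1 in hypoxia and 629.5, 460.3 and 538.5 in normoxia (0.19, SE 0.18, adjusted p = 0.732). A dim second probe set gave -1.03 (SE 0.69). Gabarap had 0.18, Map1lc3a (LC3A) 0.01 and Gabarapl1 -0.17. With quantile normalization, with averaged probe sets and without hypoxia replicate 1, the count of 4 above and 1 below 0 became 2 and 3.

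Cargo receptors bind ubiquitin-tagged material and LC3 proteins at once. Sqstm1 (p62), which is also degraded with its cargo, had signals of 1271.8, 1333.7 and 1162.0 in hypoxia and of 1162.5, 1243.8 and 1254.1 in normoxia. These ranges nearly coincide, at a log2 fold change of 0.04 (SE 0.11, interval -0.20 to 0.28). Nbr1 had 553.9, 499.0 and 541.5 in hypoxia and 561.4, 438.0 and 590.1 in normoxia, at 0.01 (interval -0.32 to 0.34). Tax1bp1 had 952.0, 882.1 and 1074.0 in hypoxia and 994.5, 959.8 and 889.4 in normoxia, at 0.03 (interval -0.24 to 0.30). All 3 point estimates were above 0, and with quantile normalization 2 of the 3 were below it.

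Tfeb and Tfe3 act mainly by moving into the nucleus, which a transcript level does not show. Tfeb had signals of 60.2, 88.0 and 74.6 in hypoxia and of 39.6, 130.7 and 130.2 in normoxia. Normoxia replicate 1 lay under all hypoxia arrays and the other 2 normoxia arrays above all of them. The log2 fold change of -0.26 (SE 0.42, adjusted p = 0.859) was -0.83 without normoxia replicate 1 (adjusted p = 0.131). It was 0.03 without normoxia replicate 2 and also without normoxia replicate 3. Tfe3 had 178.3, 225.5 and 115.6 in hypoxia and 153.6, 245.7 and 224.2 in normoxia, with the low arrays again hypoxia replicate 3 and normoxia replicate 1 (-0.29, SE 0.27, adjusted p = 0.728). It was -0.02 without hypoxia replicate 3, -0.49 without normoxia replicate 1 and -0.23 without both.

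The lysosomal members are the membrane glycoproteins Lamp1 and Lamp2 and the cathepsin proteases Ctsb, Ctsd and Ctsl. All 5 had positive log2 fold changes, between 0.11 and 0.33 with a median of 0.18, and none passed the test. Among all 11332 genes, 5032 lay above 0. The 5 stayed above 0 in each of the 18 alternative settings, of which 5 change only the error or the genes tested and not a fold change. Lamp1 came down to 0.01 without normoxia replicate 1, and Ctsd to 0.02 without that array and also without hypoxia replicate 2. Ctsl had signals of 1634.5, 1209.6 and 1374.0 in hypoxia and of 1296.0, 1012.6 and 1049.9 in normoxia. A single normoxia array, replicate 1, reached into the hypoxia range (0.33, SE 0.15, interval -0.00 to 0.65, adjusted p = 0.460). Lamp1 had 2620.8, 2663.4 and 2159.9 in hypoxia and 1959.3, 2398.2 and 2512.4 in normoxia. Its log2 fold change was 0.12 (SE 0.13, adjusted p = 0.774). Lamp2 had 1334.8, 1338.6 and 1544.2 in hypoxia and 1266.3, 1317.6 and 1123.8 in normoxia. All hypoxia arrays were above, by little (0.19, SE 0.12, adjusted p = 0.605). A further Lamp2 probe set had the smallest adjusted p of the 72 kept probe sets of the list, at 1129.9, 1000.9 and 1126.8 in hypoxia and 880.3, 820.1 and 795.0 in normoxia (0.38, SE 0.11, adjusted p = 0.237). The other 2 had 0.21 and 0.03, so the 4 Lamp2 probe sets shared a sign without passing. Ctsb had 0.18 and Ctsd 0.11.

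**Figure D3:**
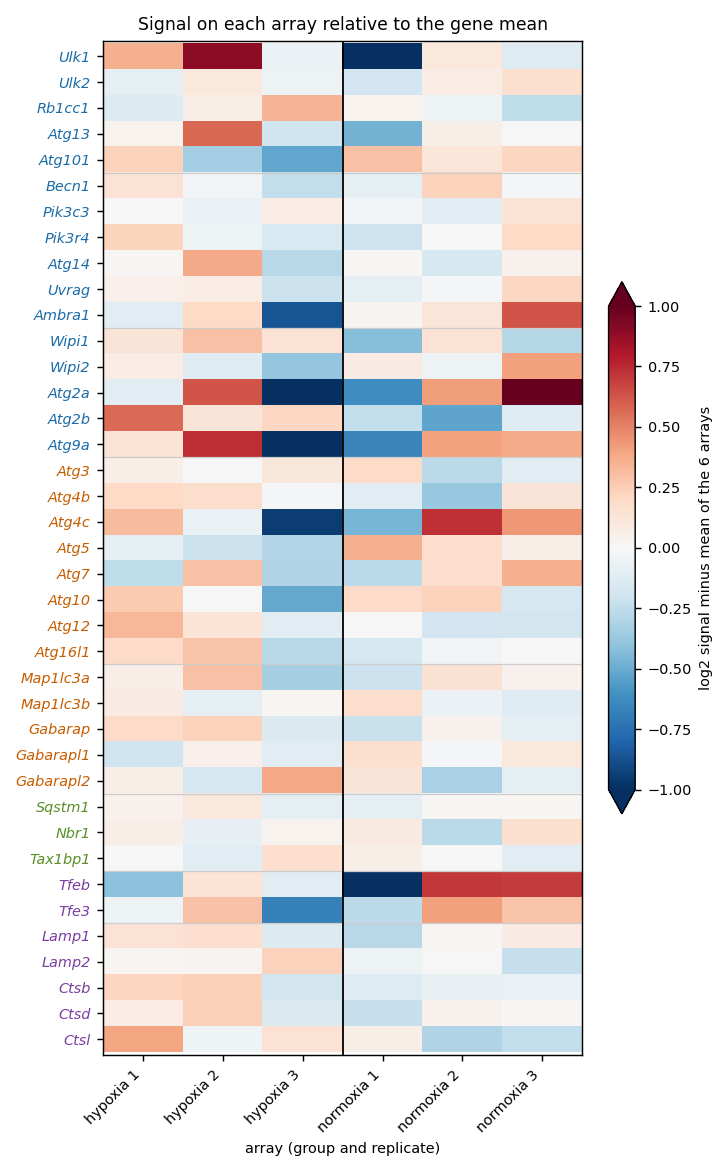
Log2 signal of each of the 39 genes on each array minus its mean over the 6 arrays, with hypoxia arrays left and normoxia arrays right of the line; colours saturate at 1 log2 either side. Hypoxia replicate 3 is blue for many initiation genes and normoxia replicate 1 is deep blue for Ulk1 and Tfeb, while the LC3, GABARAP and cargo receptor genes are mostly pale.

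Different probe sets of a gene gave a check on these values. Of the 39 genes, 20 had several probe sets above the filter, and these agreed in sign for 11 and differed for 9 (Ulk2, Rb1cc1, Becn1, Wipi1, Atg2b, Atg5, Map1lc3a, Gabarapl2 and Ctsb). None of the 72 kept probe sets of the 39 genes passed the test. Without hypoxia replicate 3 and normoxia replicate 1 together, 0 of the 39 genes passed, their median was 0.08, and the smallest adjusted p was 0.104, for Tfeb at -0.84. Centring each array on its median moved the median of all genes by 0.11 on the log2 scale and gave the 39 genes a median of 0.13, beside 0.07 for all genes.

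Promoter letters and transcript levels were set side by side. Among the 7 genes with CACGTG in a window the median log2 fold change was 0.11, and it was positive for Atg14, Atg3, Ctsd, Ctsl and Lamp1 and negative for Atg5 and Atg7. Some of these signs are unsettled, since the probe sets of Atg5 differed in sign. With 1 array left out, Lamp1 came down to 0.01, Ctsd to 0.02 and Atg14 to -0.10. The 25 other genes with a window had 0.01. Over all tested genes that have a window the medians were -0.03 with the motif (1087 genes) and -0.04 without it (8131 genes). The 30 genes with ACGTG or GCGTG had a median of 0.01, beside -0.06 for the 2 without either. For ACGTG alone the medians were 0.03 with it (17 genes) and -0.03 without it (15 genes). For GCGTG alone they went the other way, at -0.01 with it (22 genes) and 0.06 without it (10 genes). Over all tested genes that have a window the medians were -0.03 with either and -0.05 without. No test of these medians was made.

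Genes that work with the 39 were counted the same way, from lists chosen for their roles. Of 131 such genes, 118 were tested, 1 was higher in hypoxia and 0 were lower by limma's test, where 0.662% and 0.0882% of all genes were. At an unadjusted p under 0.05, 11 were higher and 7 lower, beside 6.13% and 6.3% of all genes, and the median of the 118 was -0.01. The arrays did not overlap for 16 genes with hypoxia above and 12 with hypoxia below, beside 8.16% and 9.91% of all genes. The gene that rose was Bnip3, a receptor on the outer mitochondrial membrane that binds LC3 proteins and takes mitochondria into autophagosomes. It had signals of 4282.7, 3489.6 and 3250.9 in hypoxia and of 341.8, 811.8 and 452.8 in normoxia, so the conditions lay far apart (2.87, SE 0.27, adjusted p = 0.00138). The call was lost for eBayes without trend (limma adjusted p = 0.055). Its promoter is shown because it was the 1 gene of the pathway to pass. The stretch lies at chr7:138909512-138909648 on the minus strand, with ACGTG and GCGTG on either strand in capitals.
Bnip3: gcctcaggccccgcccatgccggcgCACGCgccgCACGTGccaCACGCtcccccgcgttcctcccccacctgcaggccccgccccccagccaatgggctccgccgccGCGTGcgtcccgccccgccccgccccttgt
There are 5 matches, with first bases at -117, -108, -107, -99 and -35, where those at -108 and -107 are the 2 strands of 1 CACGTG.

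The other mitophagy genes did not pass. Pink1, a kinase that marks damaged mitochondria, had signals of 279.7, 274.1 and 194.3 in hypoxia and of 334.7, 474.2 and 453.8 in normoxia. All hypoxia arrays were lower (-0.76, SE 0.20, adjusted p = 0.171). Pink1 passed with array weights (adjusted p = 0.0482) and without hypoxia replicate 3 and normoxia replicate 1 together (0.0295). In the other settings Pink1 did not pass, with a limma adjusted p of 0.316 for centred arrays and 0.562 without normoxia replicate 3. Fundc1 and Bcl2l13, other mitophagy receptors, also had all hypoxia arrays lower, at -0.12 and -0.41, which makes 3 of the 6 mitophagy genes, beside 9.91% of all genes. Bnip3l was not analysed here. Among 16 further autophagy proteins, 0 passed (1 lower at an unadjusted p under 0.05, beside 6.3% of all genes) and the median was -0.14. Calcoco1 had the largest distance at -0.57 (SE 0.36) and Sh3glb1, a membrane-bending partner of Beclin 1, had 0.16. The 12 genes of autophagosome fusion and vacuolar sorting had a median of 0.03, with 0 past the test. Of these 12, 1 was higher unadjusted, beside 6.13% of all genes. Rab7, the GTPase of late endosomes, had 1140.0, 1297.1 and 1258.5 in hypoxia and 1064.3, 880.9 and 1077.6 in normoxia, without overlap (0.29, SE 0.12, adjusted p = 0.427). Vps11, a tethering subunit, had -0.41.

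The vacuolar ATPase pumps protons into the lysosome. Of its 15 tested subunits 0 passed (2 higher unadjusted, beside 6.13% of all genes), and the median was 0.15. Above 0 were 12 subunits, where 5032 of all 11332 genes were. The count above 0 was 11 of 15 with quantile normalization and 13 of 15 with centred arrays. Atp6v1c1 had 1502.5, 1444.0 and 1726.0 in hypoxia and 1203.4, 931.5 and 1231.2 in normoxia (0.48, SE 0.14, adjusted p = 0.220). Atp6v1d (0.46), Atp6v1h (0.25) and Atp6ap1 (0.18) also had every hypoxia array above every normoxia array, or 4 of 15 in all, where 8.16% of all genes did. Atp6v0e, a membrane subunit, had 0.15 (SE 0.10), and Atp6v0a1, another, had -0.81 (SE 0.38, adjusted p = 0.480).

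The list of lysosomal hydrolases other than the 3 cathepsins, which also holds the activator precursor Psap, went both ways. Of 34 tested, 0 passed (5 higher and 3 lower unadjusted, beside 6.13% and 6.3% of all genes), 12 were above 0 and 22 below, with a median of -0.08. The arrays did not overlap for 7 with hypoxia above and 5 with hypoxia below, beside 8.16% and 9.91% of all genes. The protease Ctsa, which also shields lysosomal sialidase, had 1647.0, 1362.3 and 1002.4 in hypoxia and 707.0, 844.0 and 929.4 in normoxia. Its arrays did not overlap (0.67, SE 0.18, adjusted p = 0.203). Leaving out hypoxia replicate 3 took Ctsa past the threshold (adjusted p = 0.0454), as did leaving out hypoxia replicate 3 and normoxia replicate 1 together (0.0162). In the other settings Ctsa did not pass. It came down to 0.45 with its probe sets averaged (adjusted p = 0.175) and to 0.51 without hypoxia replicate 1 (adjusted p = 0.514). Dnase2a, a lysosomal nuclease, had the largest distance, on dim signals of 45.5, 11.6 and 42.2 in hypoxia and 93.4, 47.6 and 71.9 in normoxia (-1.28, SE 0.50, adjusted p = 0.387). Ctsk and Ctss were below the filter. Among 14 genes listed as other lysosomal membrane proteins, which include the soluble Npc2, 0 passed, with a median of 0.06. Of these 14, 1 was lower unadjusted, beside 6.3% of all genes. Laptm4a had 0.23 and Mfsd8, a transporter mutated in a neuronal storage disease, had -0.84 on dim signals. The 8 genes that sort enzymes to the lysosome had a median of -0.27 with 0 past the test, at -0.00 for the mannose 6-phosphate receptor M6pr and -0.32 for Gga3. Of the 8, 2 lay above 0 and 6 below. All hypoxia arrays were lower for 2 of them, Gnptab (-0.28) and Sort1 (-0.29), and higher for 0, beside 9.91% and 8.16% of all genes. The list on control of TFEB and TFE3, which also holds Mitf, had 13 tested genes with a median of 0.16 and 0 past the test. At an unadjusted p under 0.05, 2 were higher (Mitf and Lamtor1) and 0 lower, beside 6.13% and 6.3% of all genes. The arrays did not overlap for 2 with hypoxia above (Mitf and Rragd) and 0 with hypoxia below, beside 8.16% and 9.91% of all genes. Fnip1, a partner of folliculin, had 0.44 (SE 0.20, adjusted p = 0.478), Lamtor1, the Ragulator anchor, had 0.34 (SE 0.14), and Mitf, a factor of the same family as TFEB, had 0.40 without overlap (adjusted p = 0.453).

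**Figure D4:**
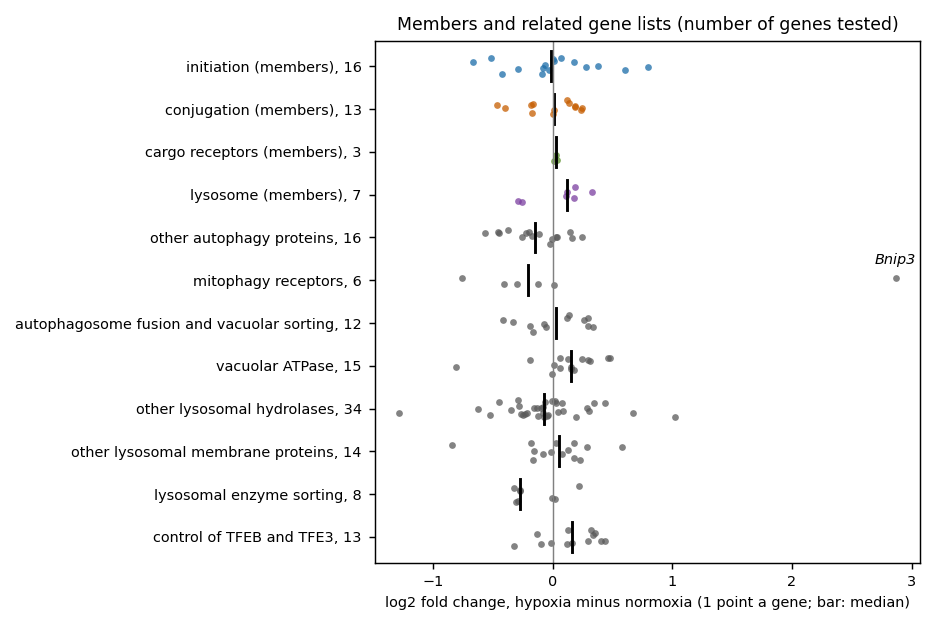
Log2 fold change, hypoxia minus normoxia, of each tested gene in the 4 stages of the 39 genes (coloured) and in 8 lists of related genes (grey), 1 point a gene, with the median of each list as a black bar. Bnip3 at 2.87 stands alone on the right; the medians lie between -0.27 (enzyme sorting) and 0.16 (control of TFEB and TFE3).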

How the data were processed

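RNA of HL-1 cells was measured on 6 one-colour Affymetrix arrays. The authors deposited a linear intensity for each probe set, made with MAS5 per the submitters' processing notes; its version is not given in the sources used. The 2% trimmed mean was 99.5 on all arrays, so no further scaling was applied. The labels do not say that replicates were separate cultures, so the p-values reflect the spread between these arrays alone, possibly a technical one.

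Here, 10 values of 0 were raised to the lowest positive signal (0.1) before the log2 transform. Of 45037 probe sets, the 22518 above the median of mean log2 signal (geometric mean 14.1) were tested with limma 3.58.1 in R 4.3.3 (lmFit, eBayes with trend, two-sided, no covariates). P-values were adjusted over all of these by Benjamini-Hochberg. An exact permutation test of 3 against 3 cannot go below 0.1. The number of arrays limits the precision. Symbols came from the platform annotation; 34945 probe sets had 1 symbol, 932 several and 9160 none. Promoters are from RefSeq (GRCm38.p6). The procedure was tested on simulated data with independent noise in each value, so that test does not cover a pattern that genes share on an array.

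In each role, values on every array are given for the gene with the largest absolute log2 fold change, the one with the highest mean signal and those whose arrays did not overlap; of each related list, the genes that passed, the one with the largest absolute change and the one with the highest mean signal are named. Nbr1, Tax1bp1, Tfeb, Atg101, Pink1, Fundc1, Bcl2l13, Atp6v1c1, Atp6v1d, Atp6v1h, Atp6ap1, Mitf and Cd68 were named beyond this after their values were seen. So were Aif1, Csf1r, Vwf, Kdr, Eng, Nppa, Sln, Myl4, Tnni3, Actn2, Rragd, Gnptab and Sort1. Npc2 and Psap were named for their role alone. The 40 genes and the related lists were chosen with earlier results of these data known. Alternatives were quantile normalization, median centring, an offset of 2.9, no filter and a filter at the 75th percentile, the replicate number as a block, array weights, eBayes without trend, robust eBayes, the mean of a gene's probe sets, leaving out probe sets ending in x_at or s_at, leaving out each array, and leaving out 2 arrays together.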

Additional observations from a re-analysis of the deposited data

How the results depend on the processing

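Of the 39 genes, 0 passed in any of the 18 alternatives. Their median log2 fold change lay between 0.00 and 0.13 over the alternatives (0.01 to 0.09 with 1 replicate left out). The counts over all genes, 75 higher and 10 lower, moved more. They were 113 and 4 with arrays centred on their median, 7 and 2 for eBayes without trend, 197 and 80 with array weights, and 73 and 17 for the mean of a gene's probe sets. Leaving out hypoxia replicate 3 and normoxia replicate 1 together, an alternative added after seeing the data, gave 183 and 90. With 1 replicate left out, 22 to 101 genes were higher and 1 to 27 lower. The cause of these moves was not tested. Related genes that passed as higher, 1 as reported, were 0 for eBayes without trend, where Bnip3 was lost, 2 without both arrays (Bnip3 and Ctsa), and 1 to 2 with 1 replicate left out. Related genes that passed as lower, 0 as reported, were 1 (Pink1) with array weights and 1 (Pink1) without both arrays.

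The labels state no pairing by replicate number. Same-numbered arrays deviated with correlations of -0.08, 0.21 and -0.14 over genes. Differently numbered arrays ran from -0.30 (hypoxia replicate 2 with normoxia replicate 1) to 0.32 (hypoxia replicate 3 with normoxia replicate 1). Each deviation is taken from the mean of its own condition, so these correlations cannot decide whether samples were paired. With the replicate number as a block, 61 genes were higher and 2 lower, 0 of the 39 genes passed, and the smallest adjusted p was 0.360 (Ulk1).

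The filter at the 75th percentile left 28 of the 39 genes to test, and leaving out probe sets ending in x_at or s_at left 38. The SE was largest for Atg2a, Atg9a, Tfeb and Atg4c. Only transcripts were measured; LC3 lipidation, p62 turnover and autophagic flux are not in these data.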
